A study of Mus musculus with 2 samples.

Results

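Receptors for the constant part of immunoglobulins (Fc receptors) were examined in RNA sequencing of skin lymphatic endothelial cells (LECs) from mouse embryos. The set comprised 8 genes, chosen by symbol for chains that bind IgE or IgG or signal for them in mast cells and macrophages: Ms4a2, Fcer1a, Fcer1g, Fcgr1, Fcgr2b, Fcgr3, Fcgr4 and Fcgrt. All 8 were found among the 24319 rows of both deposited gene lists. The study held 2 libraries from C57BL/6 embryos at E15.5 (embryonic day). The control library carries the genotype label wild type. The second carries the label Dot1l Knockout and is called the knockout-labelled library; its protocol describes the deletion as endothelial, and Dot1l encodes a histone methyltransferase. The means of deletion was not given in the sources used here. RNA was pooled from 2 to 3 biological replicates before each library was made, so each genotype is 1 library, and no difference below has a replicate check, an error between animals or a p-value. The labels also describe cultured dermal LECs, and whether the sequenced cells had been cultured was not given in the sources used here.

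Fc receptors link antibodies to cells. The high-affinity IgE receptor of mast cells and basophils is built from an IgE-binding alpha chain (Fcer1a), a signal-amplifying beta chain (Ms4a2) and a pair of gamma chains (Fcer1g). The gamma chain also serves the activating IgG receptors Fcgr1, Fcgr3 and Fcgr4, whereas Fcgr2b carries its own inhibitory motif and restrains them. Activating chains carry an immunoreceptor tyrosine-based activation motif (ITAM), which Src-family kinases phosphorylate and Syk then binds; the inhibitory motif (ITIM) recruits the phosphatase SHIP1, encoded by Inpp5d. Fcgrt encodes the neonatal Fc receptor, which pairs with beta-2-microglobulin, returns IgG and albumin from endosomes to the surface, and is made by endothelium as well as by macrophages.

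The motifs known to signal for the IgE receptor and for Fcgr2b are shown first. They were located by translating the GENCODE M21 transcripts (GRCm38), and the coding strand is printed 5′ to 3′. Capitals mark the codons of the motif tyrosines and of the leucine or isoleucine placed after each. The Fcer1g motif crosses an exon junction and lies in chr1:171229889-171230072 on the minus strand; that of Ms4a2 lies in chr19:11617512-11617553, in the last exon, on the minus strand; and that of Fcgr2b lies in chr1:170961071-170961088, in the last exon, on the minus strand. The ITAM pattern was matched in no other member. The ITIM pattern is short and was also matched in Fcer1g, Fcgr1, Fcgr4 and Fcgrt, so a match alone does not mark an inhibitory receptor; that of Fcgr2b is printed because it is the known one.
Fcer1g ITAM: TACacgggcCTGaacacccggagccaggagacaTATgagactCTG
Ms4a2 ITAM: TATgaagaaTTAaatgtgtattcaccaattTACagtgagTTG
Fcgr2b ITIM: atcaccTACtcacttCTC

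Promoters were compared because most members were far higher in the same library. The 250 bases before the RefSeq start (GRCm38.p6) were searched on both strands for AGATAA and TGATAA, sequences of GATA factors, and for AGGAAG (ETS factors such as PU.1), CATGTG (the E-box bound by MITF), TGTGGT (RUNX factors), TGANTCA (AP-1) and TTCNNNGAA (STAT factors). Capitals mark matches, which may overlap each other. The windows lie on the minus strand at chr19:11623720-11623969 (Ms4a2), chr1:173227230-173227479 (Fcer1a), chr1:171234350-171234599 (Fcer1g), chr3:96293970-96294219 (Fcgr1) and chr1:171059404-171059653 (Fcgr3, the upstream of its 2 starts).
Ms4a2: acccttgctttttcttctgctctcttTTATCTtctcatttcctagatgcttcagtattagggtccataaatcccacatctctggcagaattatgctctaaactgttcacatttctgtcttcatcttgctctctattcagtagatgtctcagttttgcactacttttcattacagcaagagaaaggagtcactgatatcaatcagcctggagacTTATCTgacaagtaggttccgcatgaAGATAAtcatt
Fcer1a: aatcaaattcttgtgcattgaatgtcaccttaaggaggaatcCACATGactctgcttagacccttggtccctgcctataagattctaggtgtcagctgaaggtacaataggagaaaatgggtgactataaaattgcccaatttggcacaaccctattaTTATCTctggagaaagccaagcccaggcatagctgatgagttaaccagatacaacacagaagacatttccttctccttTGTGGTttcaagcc
Fcer1g: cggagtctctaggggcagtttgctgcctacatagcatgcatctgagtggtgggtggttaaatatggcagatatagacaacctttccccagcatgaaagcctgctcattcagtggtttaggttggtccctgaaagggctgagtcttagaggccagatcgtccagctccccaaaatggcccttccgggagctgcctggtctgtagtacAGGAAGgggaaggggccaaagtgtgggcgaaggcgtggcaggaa
Fcgr1: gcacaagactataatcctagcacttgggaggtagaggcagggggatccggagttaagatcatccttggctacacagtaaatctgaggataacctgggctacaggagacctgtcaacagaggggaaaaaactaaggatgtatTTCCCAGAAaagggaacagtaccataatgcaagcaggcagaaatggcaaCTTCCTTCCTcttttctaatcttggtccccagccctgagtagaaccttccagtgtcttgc
Fcgr3: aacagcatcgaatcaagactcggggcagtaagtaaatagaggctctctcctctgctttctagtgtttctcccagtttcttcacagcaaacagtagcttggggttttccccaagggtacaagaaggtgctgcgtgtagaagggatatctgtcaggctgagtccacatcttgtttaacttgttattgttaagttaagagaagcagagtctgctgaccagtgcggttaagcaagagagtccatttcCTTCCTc

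Both non-shared chains of the IgE receptor, Ms4a2 and Fcer1a, held AGATAA, a sequence present in 9.99% of 32851 windows of this length. Ms4a2 held 3 copies, starting 224, 37 and 11 bases before the start of transcription, and Fcer1a held 1, starting 92 bases before it. AGGAAG, present in 29.5% of all windows, was found in 4 of the 8 members: Fcer1g, Fcgr1, Fcgr3 and Fcgr4. Fcgr1 held 2 overlapping copies and also the only STAT match of the set, starting 109 bases before its start; 7.02% of all windows hold that sequence. TGTGGT was in Fcer1a and Fcgr4 (14% of all windows) and CATGTG in Fcer1a (12.3%). TGATAA and TGANTCA were in none of the 8, beside 7.94% and 6.75% of all windows. The windows of Fcgr2b and Fcgrt held none of the 7 sequences, but 203 of the 250 bases of the Fcgr2b window lie in GENCODE exons of Fcgr2b or of its antisense gene Gm38204. These are matches of letters in a window and describe no binding.

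Values are deposited FPKM, that is, fragments counted per kilobase of a transcript and per 1000000 fragments mapped. Each difference is the log2(FPKM + 1) of the knockout-labelled library minus that of control. A gene is called higher or lower where this reaches 2-fold, and genes under 1 FPKM in both libraries are not called. The pseudocount of 1 understates the change of low genes. Dot1l itself was 5.86 FPKM in control and 10.4 in the knockout-labelled library. That value covers the whole gene, the deleted exons were not given in the sources used here, and so it does not check the label. From the spacing of low values the depths were estimated at about 10200000 fragments (control) and 9080000 fragments. Summed FPKM were 415537 and 530294.

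In the knockout-labelled library all 8 members were called higher. The same was true of 16.8% of the 13296 genes that could be called, while 2060 of those genes and no member were called lower. The members' median difference was 4.76, and the median of all genes was 0.0030. Only 4 members (Fcer1g, Fcgr2b, Fcgr3 and Fcgrt) reached 1 FPKM in control. The other 4 entered the count through the knockout-labelled library alone, so their presence in it is not a separate result. Without Fcgrt the members summed to 5.07 FPKM in control against 904 FPKM in the other. Fcgrt made up 87.1% of the summed FPKM of the 8 genes in control and 17.3% in the knockout-labelled library, where Fcgr3 made up 50.8%.

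**Figure D1:**
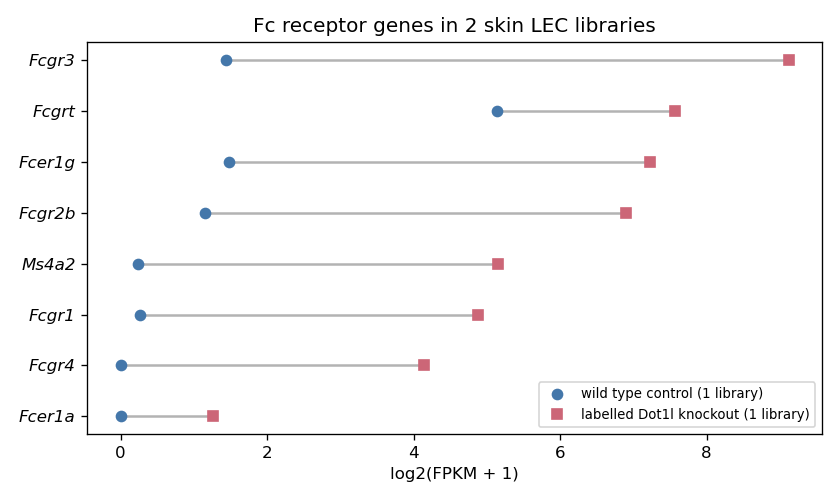
Level of each Fc receptor gene, as log2(FPKM + 1) on the horizontal axis, in the control library (circles) and the knockout-labelled library (squares), with 1 library each and a grey line joining the pair. Every square lies to the right of its circle; Fcgrt is the only gene above 10 FPKM in control (34.2), and Fcer1a is the lowest square (1.40 FPKM).

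The IgE receptor was uneven across its chains. Ms4a2, the beta chain, was 0.174 FPKM in control and 34.4 FPKM in the knockout-labelled library, a difference of 4.92. The control value stands for an estimated 1 to 4 fragments, depending on the transcript, so no fold is given. Fcer1a, the chain that binds IgE, was listed at 0 in control and was 1.40 FPKM in the other library, from an estimated 8 to 10 fragments. Its difference of 1.27 was the smallest of the set. In the knockout-labelled library the level of Fcer1a per length was 0.0408 times that of Ms4a2. Mast cells need the alpha chain to bind IgE, and in the same library the mast cell genes Cpa3 (a carboxypeptidase), Cma1 (a chymase) and Hdc (histamine synthesis) were at 4211 FPKM, 5706 FPKM and 1818 FPKM. The alpha chain was thus near the floor of detection where the beta chain and the granule genes were not.

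Fcer1g, the gamma chain shared by the IgE receptor and the activating IgG receptors, was 1.78 FPKM in control and 149 FPKM in the knockout-labelled library, 84.0-fold higher. Tyrobp, which encodes DAP12, an adaptor of the same design used by other receptors of macrophages and natural killer cells, was 4.52 and 456 FPKM. The ratio of Fcer1g to Tyrobp was 0.393 in control and 0.327 in the other library. The control value of Fcer1g rests on an estimated 9 fragments, so its fold and its control ratios here are imprecise. The ratio of Fcer1g to the summed FPKM of the ligand-binding chains that use it (Fcer1a, Fcgr1, Fcgr3 and Fcgr4) was 0.935 in control and 0.248 in the knockout-labelled library. The control sum, 1.90 FPKM, was small; the other was 602 FPKM, mostly Fcgr3. With 1 FPKM added to each gene the control ratio was 0.471, still above the other library's.

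Fcgr3, an activating receptor for IgG complexes found on macrophages, mast cells and natural killer cells, had the highest level of the set in the knockout-labelled library. It was 1.70 FPKM in control, from an estimated 20 fragments, and 555 FPKM in the other library, 327-fold higher. Its difference of 7.69 was exceeded by 16 of 13296 genes, and its level ranked 117 among all rows of that library. Fcgr1, the high-affinity IgG receptor of macrophages and monocytes, was 0.202 FPKM in control (an estimated 5 fragments) and 28.4 FPKM, a difference of 4.61. Fcgr4, an activating receptor of monocytes, macrophages and neutrophils, was listed at 0 in control and was 16.7 FPKM in the other library, a difference of 4.14. Among the activating IgG receptors the order of levels in the knockout-labelled library was Fcgr3, Fcgr1, Fcgr4, and Fcgr3 was 19.5 times Fcgr1. With 1 library the spread of these levels is unknown.

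Fcgr2b, the inhibitory IgG receptor of macrophages, mast cells and B cells, was 1.22 FPKM in control and 118 FPKM in the knockout-labelled library, 97.3-fold higher. Its difference of 5.75 was almost that of Fcer1g (5.76). The ratio of the inhibitory Fcgr2b to the activating Fcgr3 was 0.716 in control and 0.213 in the other library. The control ratio rests on an estimated 11 to 42 fragments of Fcgr2b, depending on the transcript, and 20 of Fcgr3, so it is imprecise. Whether the balance of the pair differed within any cell type was not tested. The pair share sequence. Of the 50-base windows in Fcgr3 transcripts 10.2% also occur in Fcgr2b, and of those in Fcgr2b 4.48% occur in Fcgr3, so the split of reads between them is uncertain to that extent. An antisense gene, Gm38204, overlaps exons of Fcgr2b in GENCODE; whether counting used strand was not given in the sources used here. None of the other 6 members shares a 50-base window with another member.

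Fcgrt, the neonatal Fc receptor, was the only member well above the floor in control. It was 34.2 FPKM there, from an estimated 491 to 550 fragments, and 189 FPKM in the knockout-labelled library, 5.51-fold higher, a difference of 2.43. B2m, its partner chain, was 288 and 424 FPKM, within 2-fold. The ratio of Fcgrt to B2m was 0.119 in control and 0.445 in the other library. Endothelium itself makes Fcgrt, and in the same comparison the endothelial junction gene Pecam1 was 218 and 49.2 FPKM, so Fcgrt was 0.157 times Pecam1 in control and 3.83 times in the knockout-labelled library. In control Fcgrt stood at rank 2202 of all rows and in the other library at rank 367.

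**Figure D2:**
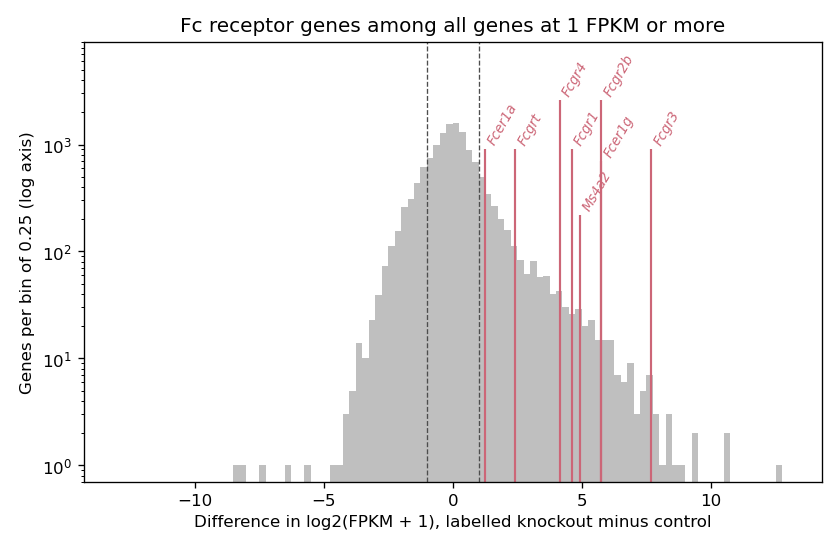
Distribution of differences in log2(FPKM + 1), knockout-labelled library minus control, over the 13296 genes that reached 1 FPKM in either library (grey bars, log vertical axis); red lines mark the 8 Fc receptor genes and dashed lines 2-fold. All 8 lie to the right of the 2-fold line, from Fcer1a (1.27) to Fcgr3 (7.69), and the lines of Fcgr2b and Fcer1g coincide.

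Markers of 3 cell types that carry these receptors were higher in the same library, as were some markers of other blood cells, given below. Of all 13296 genes that could be called 16.8% were higher, the share to set beside each count here. All 16 macrophage markers were called higher (median 5.52), and their summed level was 49.9 FPKM in control and 3078 FPKM in the other library. All 13 mast cell markers were higher (median 5.98), with sums of 126 and 14103 FPKM. All 4 basophil markers were higher, with sums of 0.685 and 130.0 FPKM, among them the basophil protease Mcpt8, listed at 0 and 57.2 FPKM. In control 6 of the macrophage, 9 of the mast cell and none of the basophil markers reached 1 FPKM, so the others entered these counts through the knockout-labelled library alone. None of the genes of these 3 lists was listed at 0 in the knockout-labelled library; in control C1qc, Timd4, Mcpt8 and Cd200r3 were. The part of these cells in the Fc receptor values was not tested, and in bulk RNA more cells of a type cannot be told apart from more RNA per cell.

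Markers of the labelled cell type were mostly present in both libraries and mostly lower in the second. Beside every count in this paragraph stand the figures for all 13296 genes that could be called, 16.8% higher and 2060 lower. Of 12 pan-endothelial markers 11 were called lower, with sums of 1326 and 322 FPKM. Of 7 lymphatic markers at 1 FPKM or more 6 were lower, and the lymphatic list summed to 844 and 614 FPKM. The exception was Lyve1, the highest of the lymphatic list, at 526 and 552.5 FPKM, within 2-fold. Prox1, the factor of lymphatic fate, was 59.3 and 13.1 FPKM. Ccl21a, a chemokine of lymphatic vessels, was 0.538 FPKM in control and listed at 0 in the other library, too low to be called. Lower values were not particular to endothelial lists. Of 6 fibroblast markers 5 were lower, with sums of 3309 and 863 FPKM, and Col3a1 was 1481 FPKM in control. Of 5 keratinocyte markers 3 were lower, with sums of 150 and 70.1 FPKM. Markers of other cells of blood, several of which can carry Fc receptors, were higher in part. Of 9 neutrophil markers in the files 5 reached 1 FPKM in either library and 4 were higher, with sums of 7.17 and 347 FPKM; S100a9 was 1.63 and 205 FPKM, and Retnlg was listed at 0 and was 30.6, while Elane was listed at 0 in both. Of 7 dendritic and Langerhans cell markers 3 reached 1 FPKM and 2 were higher, with sums of 8.77 and 127 FPKM. The higher ones were H2-Aa (listed at 0 and 41.6 FPKM) and H2-Ab1 (1.09 and 77.2). Zbtb46 was within 2-fold (7.53 and 7.94), Flt3, Xcr1 and Clec9a were under 1 FPKM in both libraries, and Cd207 was listed at 0 in both. Of 5 eosinophil markers 2 reached it and both were higher, with sums of 0 and 21.8 FPKM, and Epx was listed at 0 in both. Of 5 platelet markers 2 reached it and both were higher, Ppbp among them at 0.673 and 18.5 FPKM. Of 5 B cell markers only Cd79b reached it, at 0.394 and 4.04 FPKM, and Pax5 and Ms4a1 were listed at 0 in both. Of 7 markers of T and natural killer cells 1 reached it and was within 2-fold, and Ncr1 was listed at 0 in both. In control 2 neutrophil and 2 dendritic cell markers reached 1 FPKM. None of the eosinophil, platelet, B cell or T and natural killer cell markers did. The others that were counted entered through the knockout-labelled library alone. The part of these cells was not tested either.

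**Figure D3:**
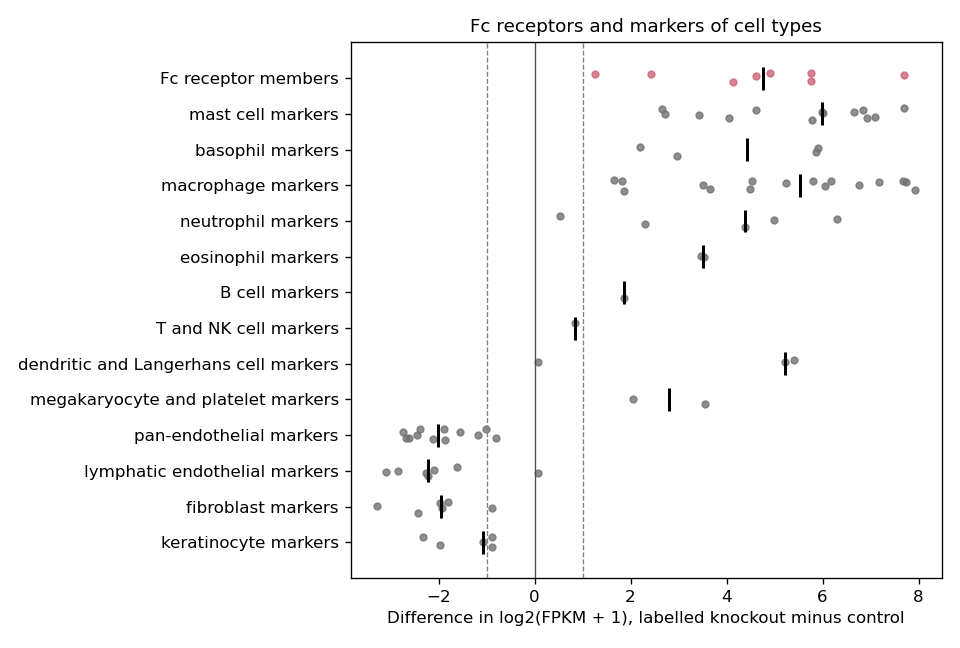
Difference in log2(FPKM + 1), knockout-labelled library minus control, for each Fc receptor gene (red) and each marker gene at 1 FPKM or more (grey), by cell type, with the median of each list as a black bar and dashed lines at 2-fold. Macrophage (median 5.52) and mast cell markers (5.98) lie on the same side as the Fc receptors (4.76). Pan-endothelial (-2.01), fibroblast (-1.94) and keratinocyte markers (-1.07) lie on the other. Basophil (4.42), neutrophil (4.39) and dendritic cell markers (5.23) also have medians on the side of the Fc receptors. The dendritic cell median rests on 3 genes, of which H2-Aa and H2-Ab1 were higher and Zbtb46 was within 2-fold.

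Levels were also set against single markers of the carrier cells within each library. The ratio of Fcgr1 to Csf1r, the growth factor receptor of macrophages, was 0.184 in control and 0.187 in the knockout-labelled library. The ratio of Fcgr2b to Csf1r was 1.11 and 0.781, and that of Fcgr3 to Csf1r was 1.54 and 3.66. With Adgre1, another macrophage gene, in place of Csf1r the order turned: the ratio of Fcgr3 was 3.35 and 3.40, that of Fcgr1 0.399 and 0.174, and that of Fcgr2b 2.40 and 0.725. With C1qa, also of the macrophage list, the ratio of Fcgr3 was 1.69 and 1.29, that of Fcgr1 0.201 and 0.0662, and that of Fcgr2b 1.21 and 0.276. Which IgG receptor came closest to keeping its ratio thus depends on the marker. It was Fcgr1 with Csf1r, and Fcgr3 with Adgre1 and with C1qa. Mast cells also carry Fcgr3. The ratio of Ms4a2 to Cpa3 was 0.00485 in control and 0.00818 in the other library. The control ratios rest on few fragments, and the markers were chosen for these ratios after their values were seen.

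The signalling genes around the receptors were mostly higher as well. Over 7 pathway lists 65 genes reached 1 FPKM in either library. Of these, 51 were called higher, 2 lower and 12 within 2-fold, with a median of 3.13. Of all 13296 genes at the same minimum 16.8% were higher, and 2060 genes were lower. Those figures also stand beside the counts of single lists below. In control 35 of the 65 were under 1 FPKM, so they entered through the other library. Among the 9 with at least 10 FPKM in control 3 were higher, 2 lower and 4 within 2-fold, with a median of 0.076. Of all 6287 genes at that control level 7.79% were higher and 17.2% lower.

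Kinases that act close to the receptors, on the ITAM or just after it, or that regulate such kinases, went both ways. Of 10 kinases 6 were higher, 1 lower and 3 within 2-fold (median 1.59), and 7 of the 10 reached 1 FPKM in control. Syk, which docks on the phosphorylated ITAM, was 2.31 and 31.7 FPKM, and Btk, which activates phospholipase C gamma, 0.124 and 37.1. Lyn, the Src-family kinase attached to the IgE receptor, was 77.1 and 81.4 FPKM, and Fyn was 44.7 and 31.5. Yes1, a broadly expressed relative, was the lower one, at 71.3 and 18.9 FPKM. Lyn was therefore at much the same level in both libraries while Syk was 13.7-fold higher. In control Ms4a2 was 0.174 FPKM and Fcer1a was listed at 0, so the level of Lyn there does not describe the IgE receptor. Which cells made the Lyn RNA was not tested.

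Of 22 adaptors and signal transducers 17 were higher, 1 lower and 4 within 2-fold (median 2.65). In control 13 of the 22 reached 1 FPKM, so the others entered through the knockout-labelled library. Lcp2, the scaffold known as SLP-76, was 0.459 and 75.0 FPKM, Lat2, a membrane adaptor of mast cells, 0.271 and 62.9, and the exchange factor Vav1 0.350 and 44.0. Lat itself, the adaptor of T cells and mast cells, was 0.475 and 10.6 FPKM. The 2 phospholipase C gamma genes went opposite ways: Plcg2, the form of blood cells, was 1.34 and 19.4 FPKM, and Plcg1 was 41.4 and 19.9, the single lower gene (within 2-fold with a pseudocount of 5). Stim1, the calcium sensor of the endoplasmic reticulum, was 13.3 and 28.6 FPKM, whereas Orai1, the channel it opens, was 2.56 and 1.86.

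Inhibitory molecules were higher in 14 of 15 cases (median 3.46). Inpp5d, the phosphatase that acts below Fcgr2b, was 6.50 and 67.5 FPKM, and Ptpn6, which encodes SHP-1, 2.11 and 97.5. Lilrb4a, an inhibitory receptor of mast cells and macrophages, was 0.377 and 116 FPKM, and Milr1, an inhibitory receptor of mast cells, 0.373 and 45.8. Cblb, a ubiquitin ligase, was the one within 2-fold, at 7.79 and 7.65 FPKM. In control 3 of the 15 reached 1 FPKM, so the other 12 entered through the knockout-labelled library. The 5 genes of the phagocyte oxidase, which IgG receptors switch on during phagocytosis, were all higher (median 3.83), with Cyba at 8.63 and 169 FPKM and Ncf1 at 0.613 and 58.6. In control 2 of the 5 reached 1 FPKM, so the others entered through the knockout-labelled library.

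**Figure D4:**
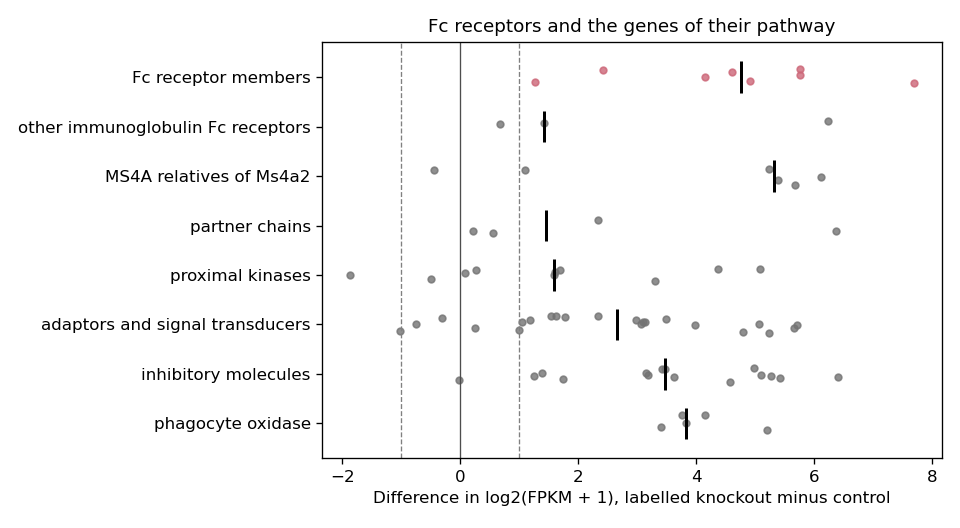
Difference in log2(FPKM + 1), knockout-labelled library minus control, for the Fc receptor genes (red) and for genes of 7 pathway lists at 1 FPKM or more (grey), with the median of each list as a black bar and dashed lines at 2-fold. Inhibitory molecules (median 3.46) and the phagocyte oxidase (3.83) lie almost wholly to the right, and kinases (1.59) spread over both sides.

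Other receptors for immunoglobulins were mostly at or near 0. Of 11 such genes 3 reached 1 FPKM in either library. Fcer2a, the low-affinity IgE receptor of B cells, was 0.0528 FPKM in control but listed at 0 in the other, and the IgM receptor Fcmr and the mucosal transporter Pigr were listed at 0 in both. Fcrls, a receptor-like gene of macrophages and microglia, was 0.488 and 111 FPKM, with a difference of 6.24. Trim21, an antibody receptor inside cells, was 5.78 and 9.78 FPKM, within 2-fold. Among the MS4A relatives of Ms4a2, 14 of 15 were in the files and 6 reached 1 FPKM, of which 5 were higher. In control 2 of the 6 reached it, so the others entered through the knockout-labelled library. Ms4a6c was 1.09 and 144 FPKM and Ms4a7, a gene of macrophages, 0.259 and 63.0, while Ms4a4d was 1.16 and 0.591. Of the partner chains Hcst (listed at 0 and 4.05 FPKM) and Tyrobp were higher, and B2m and Cd247, the zeta chain of T cells (0.734 and 1.01), were within 2-fold.

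Genes beside the Fc receptors on the chromosomes are given for context. Of the 24 distinct protein-coding genes that are the nearest 2 on each side of a member in RefSeq order and are not members, 23 were matched and 13 reached 1 FPKM; 2 were higher, 3 lower and 8 within 2-fold. These shares are near those of all genes (16.8% higher, and 2060 of 13296 lower) and set the neighbours apart in neither direction. Next to Fcer1g, Adamts4, a matrix protease, was 6.96 and 4.01 FPKM. Next to Fcgrt, Rcn3, a protein of the secretory pathway, was 190.5 and 93.4 FPKM. The 2 higher neighbours were Ms4a6d (0.919 and 79.4 FPKM), beside Ms4a2, and Cfap126 (listed at 0 and 1.14), beside Fcgr3. Fcgr2b, Fcgr4 and Fcgr3 are themselves neighbours. Both histone genes beside Fcgr1, Hist2h3b (86.6 and 7.94 FPKM) and Hist2h2bb (4466 and 694), were lower; histone genes have near-identical copies, so their reads are not securely assigned.

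The genes nearest to each member in the plane of both libraries' log2(FPKM + 1) were named by distance, over 2 libraries. For Fcer1g they were Alox5ap, which serves leukotriene synthesis (1.73 and 143 FPKM, distance 0.062), Gpr65 (1.39 and 149) and Fam105a (2.08 and 131). For Fcgr3 they were Rgs1 (1.39 and 465, distance 0.31), the chemokine gene Cxcl2 and the complement gene C1qa, and for Fcgr2b Evi2a (1.21 and 110.0), Il6 and Rab27b, a small GTPase of secretory granules. For Ms4a2 they were the interleukin receptor gene Il10ra (0.146 and 35.3), Padi3 and Hk3, and for Fcgr1 Myo1g (0.217 and 28.2), Tfec and the transcription factor Ikzf1. Mcpt2, a mast cell protease listed at 0 and 16.8 FPKM, was nearest to Fcgr4, followed by Ptprcap and Cd33. Fcgrt lay nearest to Maf, a transcription factor of macrophages (36.6 and 192), then to the lysosomal enzyme gene Hexa (33.1 and 167) and to Cxcl1. With 2 libraries many genes share such a pair of values, and a small distance says no more than that.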

How the data were processed

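Per the labels' protocols, total RNA was made into libraries with the ScriptSeq v2 kit. The authors deposited 1 FPKM value per gene symbol and library. STAR 2.5.2b, Cufflinks 2.2.1, Cuffnorm, R 3.3.2 and the build mm9 are named in the submitters' processing notes, with no roles; the annotation, and whether libraries were scaled to each other, were not given in the sources used here.

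The deposited FPKM were used unchanged, with Python 3.11.15, pandas 2.3.3 and numpy 2.4.6. Differences were taken on log2(FPKM + 1) and called at 2-fold for genes that reached 1 FPKM in either library. With 1 library per genotype no test was run. The script was tested on simulated data. An exact 0 can be a failed estimate and is written as listed at 0, with no fold.

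Depth was estimated from genes with 1 GENCODE M21 transcript of at least 2500 nt: a value is a whole number of fragments times a fixed step, with an assumed fragment of 200 nt. At the best of 500 steps that left at least 100 values of up to 5 fragments, 83% of 159 values in control were whole to within 0.1, as were 76% of 175 in the knockout-labelled library, against 17.7% and 17.2% at the median step. Not every gene gave a whole value, so the data were not fitted as counts, and fragment numbers are estimates over the GENCODE basic transcripts that assume no further scaling.

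Named genes are the members, genes of 7 pathway lists and 13 marker lists, the 3 nearest genes in pattern for members at 10 FPKM or more in 1 library, and the 2 nearest protein-coding genes on each side. Small RNAs, predicted genes and clone names were left out of the nearest genes. Some genes of these lists are counted but not reported here by name. The members and lists were chosen with earlier results of these data known. Sequences are from RefSeq and GENCODE tables of GRCm38, which is not the build of the files, so the coordinates printed locate those sequences only and were joined to no measured value; all 8 members matched the promoter table. Alternatives were other pseudocounts, scalings, minimum values and fold thresholds.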

Additional observations from a re-analysis of the deposited data

How the results depend on the processing

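No paired analysis was possible because the 2 groups hold a single library apiece, and none could be left out. All 8 Fc receptor genes had higher values in the knockout-labelled library under every pseudocount and scaling tried. Fcer1a and Fcgr4 were listed at 0 in control, so for these genes no such setting could have given another direction. The number called higher was 8 under all alternatives except a pseudocount of 5, a minimum of 5 FPKM and a 3-fold threshold, each of which gave 7. Under the 1.5-fold and 3-fold thresholds a call means that fold in place of 2-fold. The gene lost was Fcer1a, whose difference ranged from 0.36 (pseudocount of 5) to 3.91 (pseudocount of 0.1); that of Fcgrt ranged from 2.10 to 2.46 and that of Fcgr3 from 6.39 to 8.27. None was at least 2-fold lower under any of them. Of all genes, 2231 higher and 2060 lower became 1323 and 921 with a pseudocount of 5, 3464 and 3450 at 1.5-fold, and 1298 and 906 at 3-fold. With both libraries scaled to sum to 1000000, 1900 were higher and 3330 lower, so that 36.3% of calls were higher in place of 52%, and the median of all genes moved to -0.33. The ratio of Fcer1g to the chains that use it moved from 0.935 to 0.471 in control with 1 FPKM added to each gene. Control values of Ms4a2, Fcgr1 and Fcer1g rest on fewer than 10 estimated fragments, so their sizes of difference are imprecise. Those of Fcgr2b (an estimated 11 to 42 fragments) and Fcgr3 (20) are low as well.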
